A study of Mus musculus with 16 samples.

Results

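The 10 genes described here encode the NF-kappaB subunits Nfkb1, Nfkb2, Rel, Rela and Relb and 5 proteins that restrain or modulate them, namely Nfkbia, Nfkbie, Nfkbiz, Bcl3 and Tnfaip3. They were found as every noncontrol probe whose gene name in the scanner files equalled one of these symbols, which gave 12 of the 39429 noncontrol probes on the array, for 10 of 24335 named genes. The genes were measured in MDPs (macrophage-dendritic cell progenitors, from which monocytes and macrophages can still arise) and in common dendritic cell progenitors (CDPs), the step after them. These cells were sorted from lineage-depleted bone marrow of female C57/Bl6 mice and hybridised to 16 one-color (Cy5) Agilent arrays, 4 for each progenitor and condition. The tumor-bearing mice (PyMT) carried an orthotopic mammary tumor of 1.5 cm diameter grown from PyMT B6, a line derived from a mammary tumor of the MMTV-PyMT model, in which a viral promoter active in mammary epithelium drives the polyoma middle T antigen. The controls (Normal) were age-matched mice without a tumor, and by the study's methods tumors were implanted at 7 to 8 weeks and the mice analysed at 9 to 12 weeks of age. Each sample pooled 2 mice, so the spread between arrays is that between pools.

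NF-kappaB is a family of dimeric transcription factors that are held in the cytoplasm by IkappaB proteins until a signal from a receptor such as a Toll-like or TNF receptor leads to IkappaB kinase activity and IkappaB breakdown. Nfkb1 and Nfkb2 encode the precursors p105 and p100, which are processed to the DNA-binding subunits p50 and p52, while Rel, Rela and Relb encode the subunits with a transactivation domain. Many genes of the inhibitors, among them Nfkbia, Nfkbie and Tnfaip3, are themselves induced by NF-kappaB and close a negative feedback loop, and Relb and the alternative pathway are known for a role in dendritic cell development. Protein breakdown and nuclear entry, the main steps of regulation, are not seen by an mRNA array.

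Because several of these genes are known NF-kappaB targets, their promoters were read for the 10-base NF-kappaB consensus. RefSeq promoter windows on GRCm38.p6, from 250 bases before to 50 bases after a transcription start, were at hand for 7 of the 10 genes, and those of Nfkb1, Relb and Nfkbiz were not analysed here. The consensus, searched on both strands, stood in a window of 6 of the 7 genes and in 8 of their 10 windows, against 8.46% of all 32851 windows and 9.55% of 27025 genes. Rela was the gene without a match. Of Tnfaip3's windows, the one at chr10:19011914-19012213 had none, and of the 3 windows of Nfkb2 the last pair overlap and share a match. To show what these sites look like, 1 stretch of 30 bases is given per gene on the gene's own strand, with the match in capitals. A longer run of capitals marks overlapping matches.
Nfkb2, chr19:46304688-46304717, plus strand: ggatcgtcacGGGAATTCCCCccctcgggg
Rel, chr11:23771042-23771071, minus strand: cgtaagcagcGGGAAATCCCCccccctccc
Nfkbia, chr12:55492657-55492686, minus strand: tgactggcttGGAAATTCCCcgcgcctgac
Nfkbie, chr17:45555584-45555613, plus strand: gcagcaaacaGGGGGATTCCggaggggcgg
Bcl3, chr7:19822734-19822763, minus strand: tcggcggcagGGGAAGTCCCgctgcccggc
Tnfaip3, chr10:19015403-19015432, minus strand: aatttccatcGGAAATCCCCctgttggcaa

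Counted from the transcription start, the match shown began at -106 in Nfkbie, at -29 in Nfkbia, at -12 in Tnfaip3, at -92 in Rel, at -39 in Nfkb2 and at 3 in Bcl3. The matches shown for Nfkbia and Tnfaip3 lay on the strand opposite to the gene. The same window of Tnfaip3 held another site, from -125 to -116, that matched on both strands. Further sites of Nfkb2 began at -11 in its first window and at -236 and 11 in the next. The 250 bases before the start are printed for Nfkbie and Bcl3, the members on which the tumor comparisons below turn, with any match in capitals. A match describes the letters of the window and was not tested for binding.
Nfkbie, chr17:45555450-45555699, plus strand: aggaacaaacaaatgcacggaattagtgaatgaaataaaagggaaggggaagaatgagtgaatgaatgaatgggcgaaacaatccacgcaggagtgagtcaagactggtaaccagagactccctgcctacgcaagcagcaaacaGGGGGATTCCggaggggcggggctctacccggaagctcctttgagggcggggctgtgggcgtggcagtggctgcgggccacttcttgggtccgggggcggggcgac
Bcl3, chr7:19822756-19823005, minus strand: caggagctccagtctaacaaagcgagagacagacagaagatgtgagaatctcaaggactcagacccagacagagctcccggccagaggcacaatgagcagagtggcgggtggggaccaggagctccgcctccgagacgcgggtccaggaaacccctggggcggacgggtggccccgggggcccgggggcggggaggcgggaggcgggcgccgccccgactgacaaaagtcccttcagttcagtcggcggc

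All 12 probes were well above background on 16 of 16 arrays, so every member had a measured level in every sample. Levels are given as log2 of the processed intensity relative to the 75th percentile of the array, so that 0 is the brightness of the probe at that percentile and 1 unit is a doubling. The brightness of a probe depends on its sequence, and levels are therefore compared between samples for 1 probe and not between probes. On mm9, the build of the files, Nfkb1 had a probe at chr3:135254550-135254609 (probe 1) and another at chr3:135247621-135247680 (probe 2). The probes of Relb lay at chr7:20191722-20191781 (probe 1) and chr7:20191773-20191832 (probe 2) and overlap, so they are not independent. The other probes with a position were those of Rel (chr11:23641998-23642058), Rela (chr19:5648070-5648129), Nfkbie (chr17:45700000-45700059), Nfkbiz (chr16:55817859-55817918), Bcl3 (chr7:20393826-20393885) and Tnfaip3 (chr10:18720776-18720835). The files gave no position for the probes of Nfkb2 and Nfkbia, and exon annotation on this build was not used here.

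Some properties of the whole series bear on these values. The arrays lay on 4 slides of 4 arrays, each slide with 1 scan time, and the share of probes well above background ran from 58.8% to 64.3% on slide 1 and from 69.4% to 71.5% on slide 4. Slide 1 held MDP Normal 3, MDP PyMT 2 and 4 and CDP Normal 5, and no CDP PyMT array. No slide was made of 1 group alone, but the groups were spread unevenly over the slides. Of the markers of the sorted cells, Kit, Flt3, Csf1r, Cx3cr1, Irf8 and Cd34 were well above background on every array. Markers of other cells were measured in part: 3 of 8 B cell genes (Cd79b, Pax5 and Vpreb1) were above background on all 16 arrays and 2 of 8, Ms4a1 among them, on none. Of the 8 mammary genes, Krt18, Krt14 and Erbb3 were above it on all 16 arrays and Cdh1 and Csn2 on none, and of the 10 mature dendritic cell genes these were Cd83 and Cd80 on all and Ccl22 and Xcr1 on none. In such bulk samples, fewer cells of a type and less RNA per cell cannot be told apart.

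**Figure D1:**
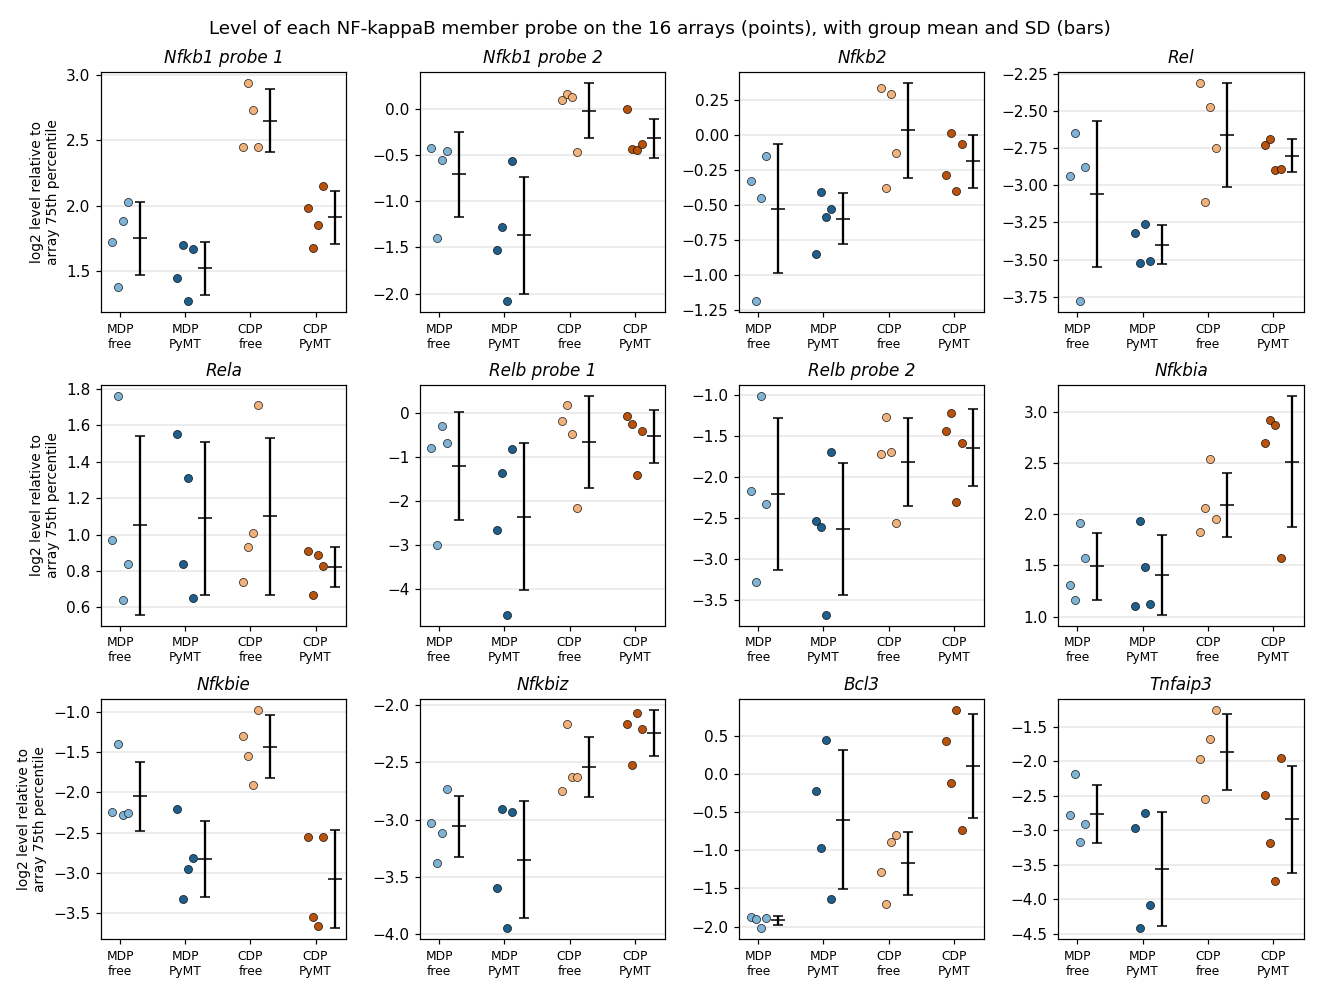
Level of each of the 12 probes on the 16 arrays, as log2 processed intensity relative to the array's 75th percentile (vertical axis, its range set for each probe), by group (horizontal axis). Points are arrays and bars are the group mean and SD (n = 4). The 4 CDP PyMT arrays lie below the 4 CDP Normal arrays for Nfkbie and Nfkb1 probe 1 and above them for Bcl3.

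The first question was whether a PyMT-B6 tumor altered these genes in CDPs. Nfkbie, which encodes the inhibitor IkappaB-epsilon, fell by 1.65 on the log2 scale (SE 0.33, 3.13-fold lower, n = 4 against 4) and was the only member called. Bcl3, an atypical IkappaB that acts in the nucleus on p50 and p52, was higher by 1.27 (SE 0.41, 2.41-fold) without passing the test, and Nfkb1 probe 1 was lower by 0.73 (SE 0.18, change -0.73). A probe was called where the limma adjusted p (Benjamini-Hochberg, over all probes tested) was under 0.05 and the fold over 1.5. By this rule 1 of the 12 member probes was called, against 1.80% of the 27433 probes tested, and the median change of the members was -0.18, against 0.08 over all probes.

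Nfkbie stood at -1.30, -1.54, -1.91 and -0.97 in CDP Normal 2 to 5 and at -2.55, -3.55, -3.66 and -2.55 in CDP PyMT 2 to 5. The groups did not overlap: the highest tumor-bearing sample lay below the lowest control. The confidence interval of the change ran from -2.35 to -0.94, the adjusted p by limma was 0.0242, and the exact two-sided permutation p was 0.0286, the smallest that 4 arrays against 4 can give. On each of the 3 slides that held both conditions the CDP PyMT arrays were the lower ones, by -1.75 to -1.25. With 1 array left out the change stayed between -1.82 and -1.45, but the adjusted p passed 0.05 without CDP Normal 2, 3 or 5 (0.0701, 0.0594 and 0.0783) and without CDP PyMT 3 or 4 (0.0858 and 0.0807). It was 0.0987 with only the CDP arrays in the fit.

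Bcl3 stood at -1.28, -1.71, -0.89 and -0.80 in CDP Normal 2 to 5 and at 0.43, -0.12, 0.84 and -0.74 in CDP PyMT 2 to 5. Every tumor-bearing sample was above every control, although CDP PyMT 5 exceeded the highest control by little. The interval of the change ran from 0.40 to 2.14 with an adjusted p by limma of 0.144 and an exact permutation p of 0.0286. With the slide as a block in the limma fit the change was 1.47 and the adjusted p 0.0293, so this member was called in that fit. That fit called 1248 of all probes, against 494 without the block. It was the only 1 of 21 alternatives that called Bcl3 in CDPs, and the adjusted p reached 0.377 among them.

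Nfkb1 probe 1 stood at 2.45, 2.94, 2.73 and 2.45 in CDP Normal 2 to 5 and at 1.98, 1.68, 1.85 and 2.15 in CDP PyMT 2 to 5. The groups were again apart, with an interval of -1.12 to -0.35, an adjusted p by limma of 0.0555 and an exact permutation p of 0.0286. The call depended on the setting: it was made in 7 of 21 alternatives, among them quantile normalization (adjusted p = 0.0218 by limma) and the slide block (0.01). Nfkb1 probe 2, which lies elsewhere in the same gene, gave -0.30 (SE 0.30, adjusted p = 0.764 by limma), and its groups overlapped. The probes of Nfkb1 had the same sign and a different size, and 55% of the bases of probe 1 were G or C, against 21.7% of those of probe 2.

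The other members had overlapping groups in CDPs. Tnfaip3, the gene of the ubiquitin-editing enzyme A20 that shuts off signalling to IkappaB kinase, had the largest of these differences, at -0.97 (SE 0.44, adjusted p = 0.349 by limma), with CDP Normal 2 to 5 at -1.96, -2.55, -1.68 and -1.25 and CDP PyMT 2 to 5 at -2.48, -3.18, -3.73 and -1.95. CDP PyMT 2 and 5 lay inside the range of the controls. Nfkbia, the gene of the classical inhibitor IkappaB-alpha, gave 0.42 (SE 0.30, interval -0.23 to 1.06), and Nfkbiz, the gene of the nuclear IkappaB-zeta, gave 0.30 (SE 0.24, interval -0.21 to 0.81). Rel, Rela and Nfkb2 lay between -0.27 and -0.14 and the Relb probes at 0.12 and 0.17. The intervals of these subunits all included 0. Over the 12 probes, 4 had an unadjusted p under 0.05 in limma, as had 13.7% of all probes. The groups of 3 did not overlap, which held for 11.1% of all probes in this comparison.

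Markers of other cells moved with the same groups. The summed level of the 14 granulocyte genes measured was 64.7 to 98.2 in CDP Normal and 118 to 159 in CDP PyMT (in units of the array's 75th percentile), with Elane, Lcn2 and Mmp8 called higher. Of these genes 10 were on the higher side and 4 (Camp, Ltf, Ngp and Retnlg) on the lower. The sum of the 10 mature dendritic cell genes was 3.18 to 5.71 against 1.23 to 2.21. It followed Clec9a (mean level 0.93 and -2.52) and Itgax (-0.34 and -3.12). Of the 8 tested, 6 were on the lower side and 2 on the higher, and none was called. Kit was called lower (-1.34, SE 0.20, adjusted p = 0.00427 by limma), and the summed level of the 10 immediate-early genes was 3.92 to 4.39 against 4.85 to 6.63. Kit is also a protein by which such progenitors are commonly gated. The sum of the 11 monocyte and macrophage genes was 16.6 to 21.8 against 22.9 to 27.3, with 10 of 11 on the higher side and Vcan called (3.96, SE 0.90, adjusted p = 0.0406 by limma). That of the 8 T and NK cell genes was 2.30 to 2.52 against 2.65 to 3.29, and it followed Nkg7 (mean level 0.62 and 1.13). Of the 6 tested, 4 were on the higher side and 2 on the lower, with Klrd1 called lower (-4.57). The part of these shifts in the values of Nfkbie, Bcl3 and Nfkb1 was not tested.

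**Figure D2:**
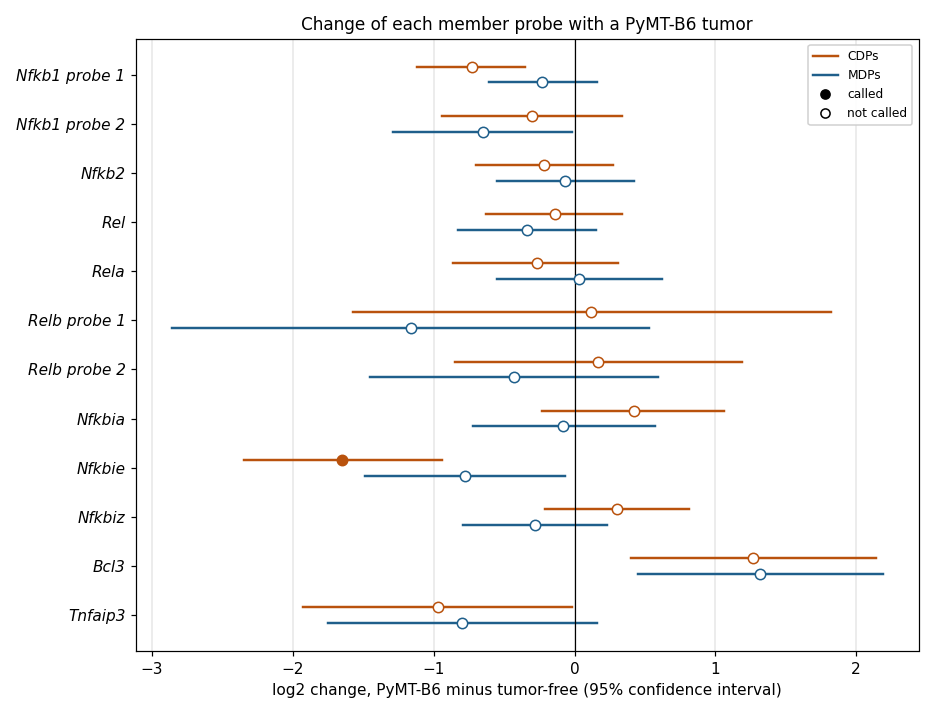
log2 change of each member probe with a PyMT-B6 tumor (horizontal axis, tumor-bearing minus tumor-free) with its 95% confidence interval from limma, in CDPs (orange) and MDPs (blue), n = 4 against 4. Filled points were called: Nfkbie in CDPs at -1.65. Bcl3 lies at 1.27 and 1.32.

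The same comparison was made in MDPs, the earlier progenitor. None of the 12 member probes was called, where 0.0656% of all probes were (18 of 27433). An unadjusted p under 0.05 in limma was found for 3 of the 12, beside 10.4% of all probes. Bcl3 showed the largest difference among the members, 1.32 higher in PyMT (SE 0.41, 2.50-fold), and Nfkbie was lower with a change of -0.78 (SE 0.33). The median change of the members was -0.31, against -0.12 over all probes, and 10 of the 12 probes were on the lower side. The groups of 1 probe did not overlap, as held for 5.21% of all probes.

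Bcl3 stood at -1.88, -1.90, -2.02 and -1.89 in MDP Normal 2 to 5 and at -0.23, -0.97, 0.45 and -1.64 in MDP PyMT 2 to 5. The controls were almost identical, with an SD of 0.06, while the tumor-bearing samples were spread widely (SD 0.91) and all lay above them. The interval ran from 0.45 to 2.19, with an unadjusted p of 0.00579 in limma, an adjusted p of 0.319 and an exact permutation p of 0.0286. MDP PyMT was higher on each of the 3 slides with both conditions, by 0.25 to 2.01. Without the arrays of slide 1, which held the highest tumor-bearing samples (MDP PyMT 2 and 4), the difference was 0.62 with an adjusted p by limma of 0.692.

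Nfkbie stood at -2.24, -1.40, -2.28 and -2.26 in MDP Normal 2 to 5 and at -2.21, -3.33, -2.95 and -2.82 in MDP PyMT 2 to 5. MDP PyMT 2 was above 3 of the 4 controls, so the groups overlapped, and the adjusted p by limma was 0.457. Tnfaip3 gave -0.80 (SE 0.44, adjusted p = 0.54 by limma), with MDP PyMT 3 and 5 at -4.42 and -4.09 and the other tumor-bearing samples among the controls. Nfkb1 probe 2 gave -0.65 (SE 0.30) and probe 1 gave -0.23 (SE 0.18), neither of them called. In MDPs the summed level of the granulocyte genes overlapped between conditions (105 to 155 in Normal and 111 to 187 in PyMT), and that of the mature dendritic cell genes did not (1.53 to 2.26 and 0.673 to 0.953). Of the 8 mature dendritic cell genes tested, 7 were on the lower side and 1 on the higher, and none was called.

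Whether the tumor acted differently on these genes in CDPs and MDPs was tested as the difference of the changes. None of the 12 probes was called and none had an unadjusted p under 0.05 in limma, with adjusted p-values of 0.748 or more. Of all probes, 0.0146% were called and 4.03% had an unadjusted p under 0.05. For Nfkbie the change in CDPs minus that in MDPs was -0.87 (SE 0.47, interval -1.87 to 0.13), and for Bcl3 the changes differed by -0.05 (SE 0.58, interval -1.28 to 1.18). For Nfkb1 probe 1 the interval was -1.05 to 0.04. The interval of Nfkbie holds both signs, so its call in CDPs and not in MDPs does not show that the progenitors differ. The intervals of Nfkbie and Bcl3 also reach past 1 log2 unit, so a difference of that size remains possible.

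Since Nfkbie and Bcl3 had the same sign in both progenitors, the mean of the changes was added after their values had been seen. In this contrast 2.76% of all probes were called (756 of 27433), with a median change of -0.05. Nfkbie fell by 1.21 on the log2 scale (SE 0.23, adjusted p = 0.0126 by limma) and Bcl3 rose by 1.30 (SE 0.29, 2.46-fold, adjusted p = 0.0244 by limma). Nfkb1 probe 1 gave -0.48 with an adjusted p of 0.0494 by limma, but its fold of 1.39 was under the threshold. Nfkbie was called in 27 of 27 alternatives of this contrast (adjusted p at most 0.0411) and Bcl3 in 22 of 27, losing its call without MDP Normal 5, CDP Normal 2 or 3, CDP PyMT 4 or all of slide 1 (highest adjusted p 0.079). This contrast shares its samples with both comparisons above and is no separate evidence.

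The order of the group means was read for each member. In the CDP Normal group the mean was highest for Nfkb1 (both probes), Nfkb2, Rel, Rela, Nfkbie and Tnfaip3, and in CDP PyMT for Relb, Nfkbia, Nfkbiz and Bcl3. MDP PyMT had the lowest mean for every member but Rela, Nfkbie and Bcl3. However, MDP PyMT 2 and 4 lay on slide 1 and no CDP PyMT array did. The mean of Relb probe 1 was -3.11 on slide 1, against -1.01, -0.52 and -0.11 on slides 2 to 4. The part of the slide in these orders was not tested. The neighbours in these orders mostly did not differ beyond their spread, as for Nfkb2, whose means were 0.03, -0.19, -0.53 and -0.60 from CDP Normal to MDP PyMT with SDs of 0.18 to 0.46.

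The comparison of CDPs with MDPs in tumor-free marrow asked how these genes stood along normal dendritic cell development. All 12 probes were on the higher side in CDPs, with a median difference of 0.58, against 0.02 over all probes. Nfkb1 probe 1 was higher by 0.89 (SE 0.18, 1.86-fold, adjusted p = 0.0078 by limma) and was the only probe called, where 6.10% of all probes were. In MDP Normal 2 to 5 it stood at 1.72, 1.38, 1.88 and 2.03, all below the CDP Normal values given above. It was called in 21 of 21 alternatives. Nfkb1 probe 2 was higher by 0.69 (SE 0.30, adjusted p = 0.239 by limma), was not called, and its groups overlapped.

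Among the uncalled subunits, Nfkb2 was at 0.56 (SE 0.23), Rel at 0.40 (SE 0.23) and Rela at 0.04 (SE 0.27). Rela encodes p65, the main partner of p50, and its interval of -0.54 to 0.63 was centred near 0. The inhibitors lay closely together, Nfkbiz at 0.52, Nfkbia at 0.61, Nfkbie at 0.62, Bcl3 at 0.75 and Tnfaip3 at 0.90, with adjusted p-values by limma of 0.273 to 0.403. The groups of Bcl3 and Nfkb1 probe 1 did not overlap, as held for 13.3% of all probes. These progenitors also differed in marker lists: the summed level of the T and NK cell genes was 13.6 to 14.5 in MDP Normal and 2.30 to 2.52 in CDP Normal, which followed Nkg7 (mean level 3.74 and 0.62), while 4 of the 6 genes tested were on the higher side in CDPs and Klrd1 was called higher there (3.81, adjusted p = 0.00659 by limma). That of the mature dendritic cell genes was 1.53 to 2.26 against 3.18 to 5.71. Of the 8 tested, 5 were on the higher side in CDPs and 3 on the lower, with Cd40 and Cd86 called higher. The part of these differences in the members' values was not tested.

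In tumor-bearing marrow 3 of the 12 probes were called higher in CDPs, where 7.26% of all probes were called, and 10 of 12 were on that side, with a median of 0.71 against 0.19 over all probes. Nfkbiz was higher by 1.11 (SE 0.24, 2.15-fold, adjusted p = 0.0118 by limma), Nfkbia by 1.10 (SE 0.30, 2.15-fold, 0.0391) and Nfkb1 probe 2 by 1.05 (SE 0.30, 2.07-fold, 0.046). Nfkb1 probe 1 was higher by 0.39 (SE 0.18, adjusted p = 0.175 by limma), was not called, and its groups overlapped. Nfkbiz stood at -3.60, -2.91, -3.95 and -2.93 in MDP PyMT 2 to 5 and at -2.16, -2.52, -2.07 and -2.21 in CDP PyMT 2 to 5, with no overlap. Nfkbia stood at 1.10, 1.93, 1.48 and 1.12 in MDP PyMT and at 2.69, 2.92, 2.87 and 1.57 in CDP PyMT. The low CDP PyMT 5 put the groups of Nfkbia in overlap, and its exact permutation p was 0.0571. The groups of 4 of the 12 probes did not overlap, as held for 14.1% of all probes.

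With 1 array left out in turn, Nfkbiz was called in 8 of 8 fits, Nfkbia in 2 of 8 (those without MDP PyMT 3 or CDP PyMT 5) and Nfkb1 probe 2 in 1 of 8 (without MDP PyMT 5). Slide 1 held MDP PyMT 2 and 4 and no CDP PyMT array. Without it no member was called, and the differences were 0.68 for Nfkbiz, 0.98 for Nfkbia and 0.61 for Nfkb1 probe 2. That fit kept only MDP PyMT 3 and 5 of their group, and the part of the fewer arrays in the lost calls was not tested. Within the slides that held both groups, Nfkbiz was higher in CDPs by 0.73 to 0.84. With the slide as a block, the called members were Nfkbiz (0.88, adjusted p = 0.0341 by limma), Rel (0.85, 0.0433) and Tnfaip3 (1.33, 0.049). Rel stood at -3.32, -3.52, -3.26 and -3.51 in MDP PyMT and at -2.73, -2.69, -2.90 and -2.89 in CDP PyMT, with no overlap, and its unblocked difference was 0.60 (SE 0.23, adjusted p = 0.121 by limma).

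**Figure D3:**
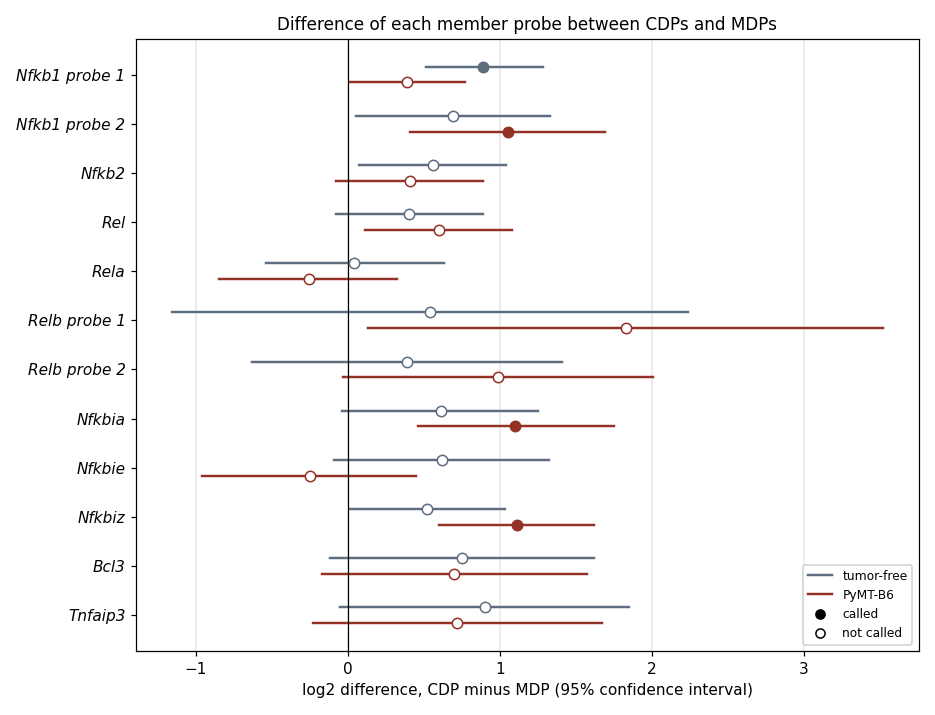
log2 difference of each member probe between CDPs and MDPs (horizontal axis, CDP minus MDP) with its 95% confidence interval from limma, in tumor-free (grey) and PyMT-B6 tumor-bearing marrow (red), n = 4 against 4. Filled points were called, Nfkb1 probe 1 in the first and Nfkb1 probe 2, Nfkbia and Nfkbiz in the second. All 12 tumor-free points lie above 0.

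Rela and Relb followed the slide more than the group. The slide accounted for 88.4% of the variance of Rela over the 16 arrays and for 83.2% and 78.4% of that of the Relb probes, and the group for 9.96%, 32.5% and 27.6%, where the median over all probes was 48.5% for the slide and 30.5% for the group. Rela lay at 1.31 to 1.76 on slide 1 and at 0.64 to 1.01 on the others. Relb probe 1 lay at -4.59 to -2.16 on slide 1 and between -1.41 and 0.18 on the others. So its difference of -1.16 in MDPs with a tumor (SE 0.79) became -0.47 with the slide as a block, and its difference of 1.83 between CDPs and MDPs in tumor-bearing mice became 0.43.

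Over the 16 arrays Rela and Relb probe 1 were correlated at r = -0.745. After the mean of each slide was taken from its arrays, r was 0.726. The sign was turned, since these genes moved apart between slides and together within them. Nfkb1 probe 2 and Rela turned in the same way, from -0.514 to 0.704. By contrast Nfkbie and Bcl3 were at -0.526 and, within slides, -0.613, Nfkbie and Tnfaip3 at 0.761 and 0.719, and the probes of Nfkb1 at 0.814 and 0.826. These values describe 16 arrays of 4 groups and share the scaling of each array. For Nfkb1 probe 1 and Nfkbie the group accounted for 81.4% and 70.9% of the variance and the slide for 16.6% and 18.3%.

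**Figure D4:**
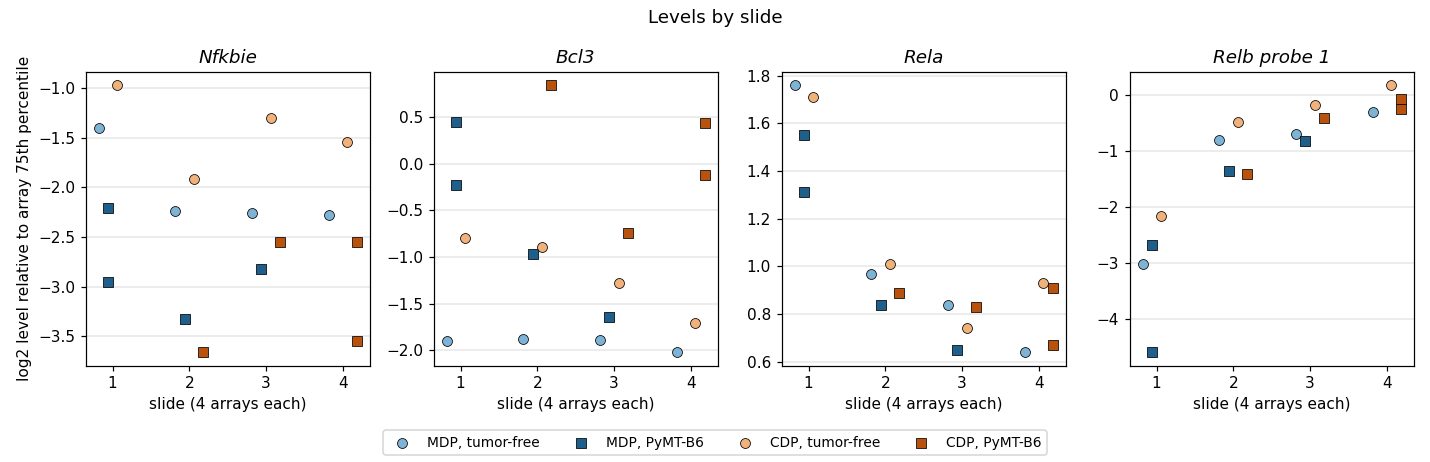
Level of Nfkbie, Bcl3, Rela and Relb probe 1 (vertical axes, log2 relative to the array's 75th percentile) on each slide of 4 arrays (horizontal axes), with circles for tumor-free and squares for PyMT-B6 samples and blue for MDPs and orange for CDPs. Rela is above 1.3 and Relb probe 1 below -2.1 on slide 1 only, while within each progenitor Nfkbie is lower and Bcl3 higher with a tumor on every slide that holds both conditions.

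The genes whose levels followed each member most closely were named by Pearson's r over the 16 arrays, among 16248 gene symbols measured on every array. Bcl3 was followed by Ppp3r1 (0.95), by Cebpb (0.941), a transcription factor of myeloid cells, and by Myd88 (0.937), the adaptor of Toll-like and IL-1 receptors. Nfkbie was followed by Trim34a (0.956), Epb4.1l4b (0.953) and Marcks (0.951), and Tnfaip3 by Gsn (0.916), Btg2 (0.91) and Cx3cr1 (0.894). These relations were as close within slides (0.893 to 0.977). Nfkb1 probe 1 was followed by Arrdc1 (0.951), Rgag4 (0.947) and Map4k2 (0.939), Nfkb2 by Zc3h7a (0.864), Ap5z1 (0.846) and Slc2a6 (0.846), and Rel by Fam134c (0.896), Rab8b (0.858) and Agtpbp1 (0.854). Nfkbia was followed by Kdm7a (0.887), Atg4d (0.877) and Naaa (0.869), and Nfkbiz by Pde1b (0.916), 4931413K12Rik (0.914) and Card10 (0.906). The nearest genes of Rela were Ctcf (0.973), Rbm15 (0.969) and Clasp1 (0.965), which dropped to 0.713 to 0.755 within slides. Those of Relb probe 1 were Ocstamp, 4930505N22Rik and Adam33 (0.977 to 0.978).

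The rest of the pathway was read from 7 lists with 103 genes, of which 90 were tested, 1 probe each. In CDPs with a tumor 3 of these were called higher and 1 lower (4.44%, beside the 1.80% over all probes), and their median change was 0.08. In MDPs 1, Lcn2, was called higher (1.11%, beside the 0.0656% over all probes) and the median was -0.02. Of the 17 IkappaB kinase and upstream kinase genes, Ikbke, the gene of the IKK-related kinase IKK-epsilon, was called in CDPs (0.82, SE 0.15, adjusted p = 0.0158 by limma), with Irak4 at 0.49 and Tab3 at -0.37 uncalled. None of the 15 adaptors and ubiquitin ligases was called with a tumor. Myd88 was at 0.78 in CDPs and 1.22 in MDPs (adjusted p = 0.354 and 0.293 by limma) and Birc3 at 0.48 and -0.14.

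No receptor (9 tested), ligand (6), other IkappaB-type gene (3) or other negative regulator (15) was called with a tumor in either progenitor. The smallest p-values in CDPs were those of Tnfrsf13c, the BAFF receptor (-1.70, adjusted p = 0.0896 by limma), Tlr2 (0.36) and Ltbr (0.30) among receptors, of Tnfsf14 (0.80, 0.134), Il1b (0.62) and Tnfsf13b (0.24) among ligands, and of Commd1 (0.54, 0.0922), Cops5 (0.38) and Cyld (-0.68) among negative regulators. Nfkbib, Nfkbid and Nfkbil1, which encode other IkappaB-type proteins, lay between -0.12 and 0.27 in CDPs and between -0.06 and 0.16 in MDPs. Il1b had opposite signs in the progenitors, with -0.81 in MDPs, and neither value was called.

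Of the 25 genes tested that are known NF-kappaB targets, 2 were called higher and 1 lower in CDPs with a tumor, where 1.80% of all probes were called. Their median change was 0.17. Lcn2, the gene of lipocalin 2 and also a granulocyte marker, rose by 2.70 (SE 0.35, 6.49-fold, adjusted p = 0.00186 by limma) and, in MDPs, by 2.16 (SE 0.35, 4.48-fold, 0.0489), where it was the only target called. Gadd45b, a stress-response gene, rose by 0.82 in CDPs (SE 0.19, adjusted p = 0.0486 by limma), and Ccnd1, the gene of cyclin D1, fell by 1.91 (SE 0.43, 0.0378). Between CDPs and MDPs, in tumor-free marrow 3 of the 90 genes were called higher and 3 lower (6.67%, beside 6.10%) and in tumor-bearing marrow 6 and 1 (7.78%, beside 7.26%). The ligands had a median of -0.10 in the first and 0.55 in the second, none of them called.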

How the data were processed

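The scanner files were made by the authors with Agilent Feature Extraction 11.5.1.1 (1 color, Cy5). The deposited processed intensity is background-subtracted and detrended within each array and not scaled between arrays. From it, spots flagged as outliers were left out, spots of a probe were averaged, and log2 intensity minus the array's 75th percentile over noncontrol spots was taken. A deposited table of log2 values, whose normalization the sources do not state, followed quantile-normalized intensities closely (r at least 0.99982) and served as an alternative.

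The test covered 27433 probes, those that at least 3 of the 4 arrays in some group flagged as well above background, and was run with limma 3.58.1 in R 4.3.3, with the 4 group means in 1 fit. Single probes were also given an exact permutation test over 70 relabelings. Each sample is a pool, and p-values measure the spread between such pools; the number of arrays limits the precision. The fits were tested on simulated data without differences between slides, so that test does not cover the effect of the slide. The alternatives were background correction, normalization, filters, blocks by slide or replicate number, the samples fitted, the methods' t-test and leaving out arrays or slide 1. Averaging the tumor effects and leaving out slide 1 were added after the data had been seen.

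All members are described. The genes named from a pathway list were those called or, up to 3 per list, those with the smallest p in CDPs, and the closest 3 genes by Pearson's r were named for each member; a few genes of the lists are not reported here. The members and lists were chosen with earlier results of these data known.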

Additional observations from a re-analysis of the deposited data

Results flagged for a closer look

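Of 48 sets of 4 arrays (12 probes in 4 groups), 6 held an array whose gap to its nearest neighbour exceeded the critical share of the group's range in Dixon's test, where chance alone gives about 1 in 20. For Nfkb1 probe 2 these were MDP Normal 3 at -1.40, CDP Normal 5 at -0.47 and CDP PyMT 2 at 0.00 (log2 level, gaps of 0.876, 0.889 and 0.843 of the range). MDP Normal 3 and CDP Normal 5 were both on slide 1. MDP Normal 3 also stood out for Nfkbie at -1.40 (0.946), above the other MDP Normal arrays. For Nfkbia it was CDP PyMT 5 at 1.57 (0.836), below the others, and for Bcl3 MDP Normal 4 at -2.02 (0.893), in a group whose SD was 0.06. The part of the slide in these values was not tested. No member had a tumor effect that differed between CDPs and MDPs by the limma test of the difference.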

How the results depend on the processing

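Over 1644 settings of single probes, 1519 kept the direction and the side of the threshold, 69 uncalled values changed sign, 42 lost a call, 14 gained one and 0 turned the direction of a called value. With 1 member called for the tumor effect in CDPs, the count was 2 under quantile normalization, scaling to the median, probes above background on all 16 arrays, the deposited table or without slide 1, 3 with the slide block, and 0 with only the groups compared or by the methods' t-test. In tumor-free mice the slide block gave 2 in place of 1. In tumor-bearing mice, with 3 called, the count was 0 under normexp, only the groups compared or without slide 1, and 1 with no filter or by the methods' t-test. The averaged tumor effect gave 1 in place of 2 without slide 1, and 3 with the slide block (Tnfaip3 added, -0.89, adjusted p = 0.022 by limma) or with no fold threshold (Nfkb1 probe 1 added). Leaving out 1 array each gave 0 to 2 calls for the tumor effect in CDPs, 0 to 0 in MDPs and for the difference, 1 to 1 and 1 to 2 between progenitors in tumor-free and tumor-bearing mice, and 1 to 2 for the averaged effect. The causes were not tested.

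The labels do not say what a replicate number marks, and the numbers were not taken as pairs. Same-numbered deviations from the group mean correlated above 0.1 in 3 of 4 pairs for the tumor effect in CDPs and 1 of 4 in MDPs. Between progenitors this held for 0 of 4 pairs in tumor-free and 3 of 4 in tumor-bearing mice (-0.634 to 0.481 in all). The slide was not removed from these deviations, and only 2, 1, 0 and 1 of the 4 pairs shared a slide. The correlations therefore cannot decide whether same-numbered samples came from the same mice. Every sample correlated best with its own number in none of these comparisons. With the replicate block the counts were 1 and 0 for the tumor effect in CDPs and MDPs, 0 for the difference, 1 and 2 between progenitors (in tumor-bearing mice Nfkb1 probe 2 was not called, adjusted p = 0.0842 by limma), and 2 for the averaged effect. Over all probes, the tumor effect in CDPs gave 494 calls, against 1248 with the slide block and 56 with only the groups compared, and that in MDPs 18, against 44 and 5. In tumor-free mice 1673 became 2925 with the slide block, and in tumor-bearing mice 1993 became 1146 without slide 1. Under quantile normalization the median of all probes moved from -0.12 to 0.00 in MDPs with a tumor, where the calls split 9 higher to 9 lower and 8 to 3.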
